A study of Mus musculus with 8 samples.

Results

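Foxj1, Rfx1, Rfx2, Rfx3, Rfx4, Rfx5, Rfx7 and Myb encode transcription factors tied to the making of cilia, and these 8 genes were taken by name from the 55487 genes of the deposited tables. Foxj1, a forkhead factor, turns on the genes of motile cilia, the beating cell projections that the ependyma and the choroid plexus carry in the brain. The Rfx factors share a winged-helix DNA-binding domain that recognises the X-box, a palindromic promoter element, and several of them act with Foxj1 on genes of motile and of primary cilia. Myb, best known from blood cell progenitors, acts upstream of Foxj1 in multiciliated cells of the mouse airway. Not every member is mainly a ciliary factor: Rfx5 is known for the genes of antigen presentation, and Rfx7 for tumour suppressor targets in human cells.

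Cortical RNA was sequenced at E18.5 in 4 control mouse embryos and 4 mutants labelled Upf2cKO. Of the controls, 3 were Upf2 fl/fl and control 2 was Upf2 fl/+, with 1 floxed allele, and no control label lists a Cre. The mutants were Upf2 fl/fl;Emx1-Cre. Upf2 belongs to the machinery of nonsense-mediated mRNA decay, which degrades transcripts with a premature stop codon, and Emx1-Cre is active in progenitors of the dorsal forebrain, not in the microglia, vessels or interneurons that enter the cortex from elsewhere. The title of the series names cilia among its subjects, and the comparison below asks how their regulators differed between the groups. Litters are not named in the labels, so the p-values cover the spread among these samples only, which may be technical in part. In pieces of tissue fewer cells of a type and less RNA per cell cannot be told apart.

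Values are CPM, read counts scaled to a common total per library. Libraries held an estimated 96.6 to 156.0 M assigned reads, so that a read was worth 0.0064 to 0.0104 CPM. Upf2 had 58.1 to 68.5 CPM in controls and 135 to 154 CPM in the libraries labelled Upf2cKO, a value for the whole gene that checks neither the deletion nor the labels. Fabp7, Nes and the cortical factor Emx2 were detected in every library. Upf2cKO 1 and Upf2cKO 4 stood apart from the other mutants in markers of other cells, as given with Foxj1 and Rfx4.

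All 8 genes passed the filter of 0.5 CPM in at least 4 libraries. With limma on log2(CPM + 0.1), 4 of them rose (Foxj1, Rfx1, Rfx2 and Rfx5), 3 fell (Rfx3, Rfx4 and Myb), and Rfx7 did not pass the test at an adjusted p of 0.05. The 7 that passed have to be read against a background in which 63.0% of the 16573 genes tested passed, 36.7% as higher and 26.3% as lower. In 5 members the libraries of the groups did not overlap, and the same held for 56.6% of the genes tested. The median size of the log2 change was 0.39 over the members and 0.29 over all genes tested. On the deposited TPM, which is divided by gene length, 60.8% of genes passed and Rfx4 no longer did.

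**Figure D1:**
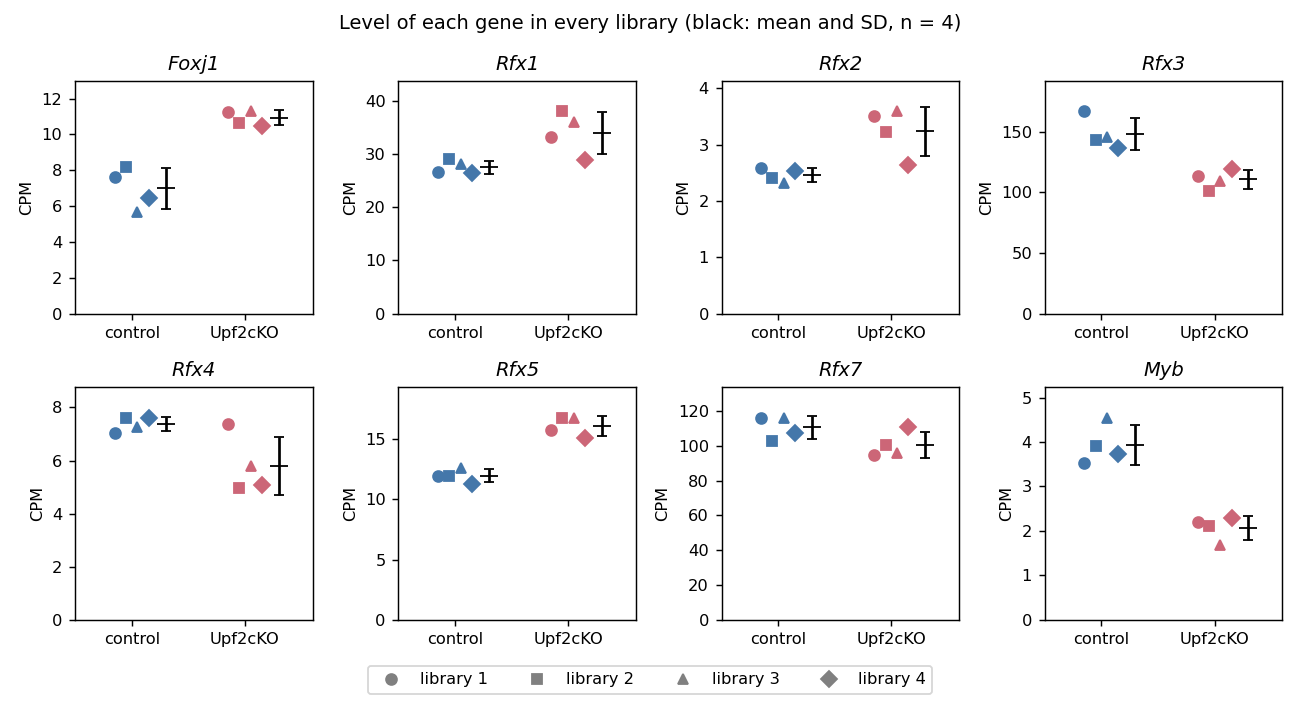
CPM of the 8 genes in each library, controls in blue and Upf2cKO in red, with marker shapes for library number and black bars for mean and SD (n = 4). Foxj1 lies at 5.69 to 8.17 CPM in controls and at 10.5 to 11.3 CPM in Upf2cKO, whereas Rfx7 overlaps between the groups.

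Short promoter stretches are shown for the genes in which the core letters of the Rfx site were found, since that site links the Rfx factors to cilia genes and to each other. The arm GTTGCC of the X-box was searched on both strands in RefSeq promoter windows (build GRCm38.p6) from 250 bases before to 50 bases after each start. It was present in 3 of the 7 members with a window (all but Foxj1), Rfx1, Rfx2 and Rfx3, and in 14.1% of the 27025 genes with a window. The arm, in capitals, begins at base 2 after the start of Rfx1 (chr8:84066829-84066850, plus strand), 116 bases before the start of Rfx2 (chr17:56831111-56831132, minus strand) and at base 32 after the start of Rfx3 (chr19:28011122-28011143, minus strand), and each is printed with 8 bases on either side.
Rfx1: tagcaacaGTTGCCccggtgag
Rfx2: tggtaaccGTTGCCgggcgcaa
Rfx3: tagcaaccGTTGCCttgtgaat

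The X-box consensus of 14 bases, which may overlap an arm, was found in the windows of Rfx2 and Rfx5, and in 3.66% of all genes with a window. The forkhead core GTAAACA, the kind of site that Foxj1 binds, was found only in Myb among the members, and in 4.05% of all genes. Such matches describe these letters in these windows and show no binding.

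The same letters were counted, with no test, in the genes of the cilia lists described further on. These lists were drawn up as genes that depend on Rfx factors, the motile list also on Foxj1. A higher share of Rfx sites than in other genes is therefore partly built into them and is no result about cilia genes. The arm was found in 20 of 35 genes of the primary cilium list with a window (57.1%) and in 19 of 48 genes of the motile cilia list (39.6%), against 15% of the genes tested. The X-box consensus was found in 14 of the 48 motile cilia genes (29.2%) and in 5 of the 35 primary cilium genes (14.3%), against 3.93% of the genes tested. Neither the arm nor the consensus was found in the windows of Dnah1, Dnah2, Dnah9 and Ift52, which all rose. Windows of Bbs7 (chr3:36613489-36613518, minus strand) and Ift172 (chr5:31291101-31291122, minus strand), which both rose, are shown with the whole consensus in capitals in Bbs7 and the arm in Ift172.
Bbs7: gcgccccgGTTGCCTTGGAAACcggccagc
Ift172: gcactcacGTTGCCtgtgcgtc

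Foxj1, the forkhead regulator, rose. It stood at 7.63, 8.17, 5.69 and 6.46 CPM in controls 1 to 4, against 11.28, 10.66, 11.29 and 10.50 CPM in the libraries Upf2cKO 1 to 4. Every library labelled Upf2cKO was above every control, and the mutants lay closer together than the controls, with a coefficient of variation of 3.77% against 16.0%. The means were 6.99 ± 1.121 and 10.9 ± 0.412 CPM (SD, n = 4), a 1.57-fold rise (95% interval 1.33 to 1.85, limma adjusted p = 0.000317). Foxj1 lies on chromosome 11 from 116330704 to 116335399 on the minus strand of mm10, has a single annotated transcript and overlaps no other annotated gene.

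Libraries differed in the markers of cells that carry motile cilia. Ttr, the main secreted protein of the choroid plexus, stood at 28.5, 1.2, 7.60 and 119 CPM in controls 1 to 4, against 4.4, 1.37, 1.55 and 258 CPM in the libraries Upf2cKO 1 to 4, with the highest value of each group in control 4 and Upf2cKO 4. Of 18 choroid plexus markers 8 were tested, of which Slc4a5, a bicarbonate transporter, rose (2.39-fold) and 7 did not pass. Slc4a5 had 1.52 CPM in Upf2cKO 4 and 0.60 to 0.62 CPM in the other mutants. Over the whole list, 12 were highest in control 4 among controls and 15 in Upf2cKO 4 among mutants, the summed level ranged from 79.8 to 219 CPM in controls and from 72.1 to 379.9 CPM in mutants, and none was at 0 in every library. Foxj1 had 6.46 CPM in control 4 and 10.50 CPM in Upf2cKO 4, and without both libraries its log2 change was 0.64 (limma adjusted p = 0.00385). The part of choroid plexus cells in the rise of Foxj1 was not tested.

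Ependymal markers were instead raised in Upf2cKO 1. There 10 of 14 were highest among the mutants. Of the 7 that were tested 1110017D15Rik rose, Cd24a and Vim fell and 4 did not pass. Ccdc153, a gene of ependymal cilia, had 1.07 CPM in Upf2cKO 1 and at most 0.04 CPM in the other mutants, and S100b, made by ependymal cells and astrocytes, had 10.56 CPM against 0.68 to 0.80 CPM. Tmem212 and Sntn, 2 further ependymal genes, were listed at 0 in every library but Upf2cKO 1. Foxj1 in Upf2cKO 1 was level with Upf2cKO 3, and without Upf2cKO 1 its log2 change was 0.64 (limma adjusted p = 0.000493). The part of ependymal cells in the rise was not tested either. The summed ependymal list ranged from 2318 to 2471 CPM in controls and from 1950 to 2104 CPM in mutants, carried mostly by Cd24a, Nnat and Vim, which other cells of the cortex also express.

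**Figure D2:**
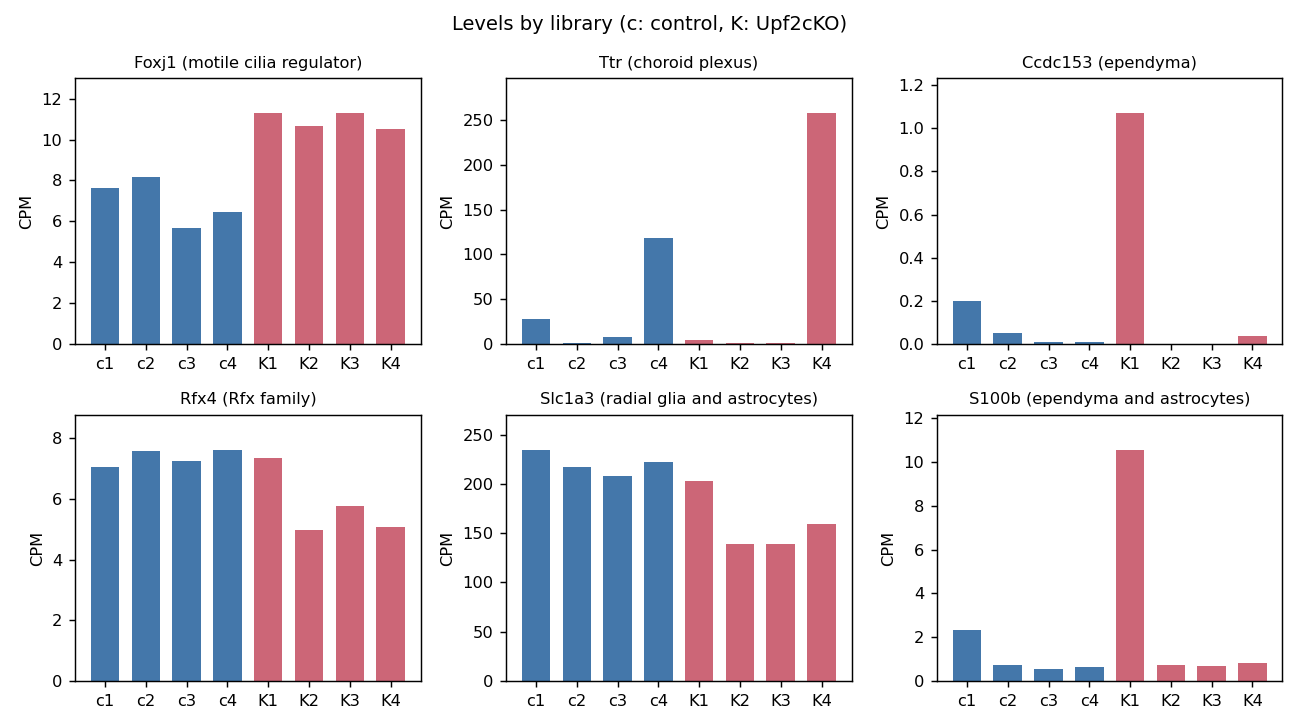
CPM of Foxj1, Rfx4 and 4 marker genes in each library, controls (c1 to c4) in blue and Upf2cKO (K1 to K4) in red. Ttr is high in c4 and K4, Ccdc153 and S100b are high in K1, and Foxj1 is higher in all 4 mutants than in any control.

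Rfx2 and Rfx3, which act with Foxj1 in ciliated cells of the mouse, moved in opposite directions. Rfx3, needed for cilia of the node and the ependyma in the mouse, had 166.86, 142.91, 145.96 and 136.31 CPM in controls 1 to 4, against 113.61, 101.14, 109.41 and 119.55 CPM in the libraries Upf2cKO 1 to 4. All mutants lay below all controls. The means of 148 ± 13.2 and 110.9 ± 7.74 CPM (SD, n = 4) differed 1.33-fold (log2 change -0.41, SE 0.07, limma adjusted p = 0.000343).

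Rfx2, which in the mouse is most needed in the testis, was the scarcest of the 6 Rfx members, with 2.59, 2.41, 2.31 and 2.53 CPM in controls 1 to 4, against 3.51, 3.23, 3.59 and 2.63 CPM in the libraries Upf2cKO 1 to 4. Upf2cKO 4 lay just above the highest control, and the other mutants were well above it. The rise was 1.30-fold (95% interval 1.09 to 1.54, limma adjusted p = 0.0132). With 264 to 395 reads estimated per library, it rests on far fewer reads than Rfx3 with 10975 to 21894.

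Rfx1, the widely expressed founding member of the family, was above all controls in 3 of 4 mutants. It had 26.57, 29.03, 28.01 and 26.49 CPM in controls 1 to 4, against 33.12, 37.97, 35.92 and 28.85 CPM in the libraries Upf2cKO 1 to 4. Upf2cKO 4 fell within the range of the controls. The rise was 1.23-fold (means 27.5 ± 1.22 and 34.0 ± 3.95 CPM, SD, n = 4, limma adjusted p = 0.00730), and without Upf2cKO 4 it was 0.37 on the log2 scale in place of 0.30. Its exons share 42 bases with the antisense gene C330011M18Rik, at 0.92 to 1.55 CPM, and no source used here says whether counting used strand.

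Rfx4, a factor of neural progenitors and astrocytes whose loss in the mouse disturbs the dorsal midline of the brain, had 7.04, 7.59, 7.26 and 7.62 CPM in controls 1 to 4, against 7.36, 4.98, 5.78 and 5.08 CPM in the libraries Upf2cKO 1 to 4. Upf2cKO 1 was at the level of the controls and the other mutants were below all of them. The means were 7.38 ± 0.278 and 5.80 ± 1.10 CPM (SD, n = 4), a 1.28-fold fall (log2 change -0.36, limma adjusted p = 0.0199), and without Upf2cKO 1 the log2 change was -0.48. The call was lost on TPM (adjusted p = 0.0519), without control 4 and Upf2cKO 4 (0.113), without Upf2cKO 2 (0.0565) and without Upf2cKO 4 (0.0556).

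Other genes of glial cells had the same odd library. Slc1a3, a glutamate transporter of radial glia and astrocytes, had 203 CPM in Upf2cKO 1 and 139 to 159 CPM in the other mutants, against 208 to 235 CPM in controls. Aldoc, an enzyme of the same cells, had 158 CPM in Upf2cKO 1 and 90.3 to 94.5 CPM in the others, and Hopx, a marker of radial glia, 6.91 and 3.67 to 4.69 CPM. Over all 20 radial glia markers, 9 were highest in Upf2cKO 1 among the mutants and 8 in Upf2cKO 4. Of these 20 markers 14 fell, with Nes (1.55-fold), Ptn (1.88-fold) and Fabp7 (1.59-fold) at the smallest adjusted p, and only Notch2 rose. The summed level was 3541 to 3650 CPM in controls and 2565 to 2887 CPM in mutants, no marker was at 0, and the part of these cells in the result for Rfx4 was not tested.

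Rfx5, the DNA-binding subunit of the complex that controls MHC class II genes, rose. Its levels were 11.89, 11.96, 12.61 and 11.30 CPM in controls 1 to 4, against 15.77, 16.75, 16.78 and 15.09 CPM in the libraries Upf2cKO 1 to 4. The groups lay apart and each was tight. The means of 11.9 ± 0.536 and 16.1 ± 0.819 CPM (SD, n = 4) gave a 1.345-fold rise (95% interval 1.23 to 1.47, limma adjusted p = 0.000107). Rfx5 shares 1471 exonic bases with the antisense gene B230398E01Rik, which stood at 0.17 CPM or less.

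Its partners and targets moved in both directions. The other subunits, Rfxap (30.1 and 26.9 CPM in controls and mutants, adjusted p = 0.0937) and Rfxank (9.16 and 8.69 CPM, adjusted p = 0.422), and the coactivator Ciita (1.74 and 1.795 CPM, adjusted p = 0.878) did not pass limma's test. The classical class II genes H2-Aa, H2-Ab1 and H2-Eb1 and the invariant chain Cd74 stayed at 0.47 CPM or less in every library, under the filter. Of 22 listed genes 14 were tested, 5 rose and 4 fell, with a median log2 change of -0.11. The 64.3% that passed lie near the 63.0% of all genes tested. Summed over the list, the level was 485 to 519 CPM in controls and 488 to 545 CPM in mutants. Nfyc (1.46-fold) and Nfyb (1.61-fold), subunits of the factor NF-Y that binds beside Rfx5, rose, and so did H2-DMa (2.64 ± 0.121 to 5.015 ± 0.468 CPM, 1.86-fold), whose exons overlap those of Brd2 on the other strand by 360 bases. Brd2 itself had 327 CPM in controls and 780.4 CPM in mutants, and without strand its reads and those of H2-DMa cannot be told apart there.

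Microglia, the resident macrophages of the brain, which Emx1-Cre does not target, had more marker RNA in the mutants. Of 14 markers 11 rose and none fell. Cx3cr1 (3.00-fold), Aif1 (3.31-fold) and C1qa (3.51-fold) had the smallest adjusted p, and the summed level was 61.5 to 84.9 CPM in controls and 152 to 219 CPM in mutants, with no marker at 0 in every library. All 14 markers were highest in Upf2cKO 1 among the mutants, and 12 were highest in control 1 among the controls. Without Upf2cKO 1 the number of markers that rose was again 11 and 1 fell, and the log2 change of Rfx5 was 0.44 in place of 0.43 (limma adjusted p = 0.000152). The part of these cells in the rise of Rfx5 was not tested.

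Rfx7 did not pass the test. It had 116.31, 102.66, 116.06 and 107.55 CPM in controls 1 to 4, against 94.65, 100.61, 95.88 and 111.14 CPM in the libraries Upf2cKO 1 to 4. Of the mutants, 3 were below every control and Upf2cKO 4 was within their range. The log2 change was -0.14 (95% interval -0.27 to -0.005, limma adjusted p = 0.0669). It passed as lower after median-of-ratios rescaling (adjusted p = 0.00784), without control 2 (0.0376), without Upf2cKO 4 (0.0115) and without control 4 and Upf2cKO 4 (0.0186), and on TPM the change was -0.08 (adjusted p = 0.360).

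Genes reported as RFX7 targets in human cells moved in both directions. Of 19 tested, 4 rose and 6 fell, so that 52.6% passed, against 63.0% of all genes tested. Their median log2 change was -0.06 against 0.04 over all genes tested. Tspyl2 rose 1.68-fold and Maf, a transcription factor, 1.47-fold, whereas Arl15, a small GTPase, fell 1.54-fold. Pdcd4 and Tob1, growth inhibitors often cited as RFX7 targets, did not pass (limma adjusted p = 0.170 and 0.889).

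Myb had the largest change of the 8 genes. It had 3.53, 3.91, 4.55 and 3.73 CPM in controls 1 to 4, against 2.19, 2.11, 1.68 and 2.28 CPM in the libraries Upf2cKO 1 to 4. No mutant reached the lowest control. The means of 3.93 ± 0.442 and 2.065 ± 0.266 CPM (SD, n = 4) gave a 1.86-fold fall (log2 change -0.90, SE 0.12, limma adjusted p = 7.86e-05). Myb shares 559 exonic bases with the antisense gene Gm26577, which ranged from 0.35 to 1.35 CPM over all libraries. That is not small beside the 1.68 to 2.28 CPM of Myb in the mutants. Without strand the reads of Gm26577 and Myb cannot be told apart in the shared bases.

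The other genes of the Myb family went the opposite way. Mybl2, which drives genes of cell division, rose from 6.005 ± 0.527 to 19.7 ± 1.10 CPM (SD, n = 4, 3.25-fold, limma adjusted p = 1.96e-08), and Mybl1, known from the testis, rose from 5.50 to 7.35 CPM (adjusted p = 0.00763). Of 14 family members and partners, 3 rose and 7 fell, among them Rbbp4, a chromatin subunit of the MuvB complex that Mybl2 joins (1.29-fold lower), while Lin37 of the same complex rose 1.6-fold. Markers of dividing cells were lower, with 9 of 14 falling and none rising, among them Pcna (1.55-fold), Rrm2 (1.55-fold) and Mki67 (1.43-fold). Their summed level was 569 to 640.1 CPM in controls and 406 to 469 CPM in mutants.

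Markers of blood cells, in which Myb is best known, were also lower. Of 14 erythroid and haematopoietic progenitor markers 8 were tested, 6 fell and 1 rose. Cd34, which endothelium also expresses, fell 1.39-fold and the globin Hba-a1 1.46-fold, whereas Spi1, which microglia express, rose 2.47-fold. The summed level was 169 to 193 CPM in controls and 103 to 138 CPM in mutants. The part of dividing or blood cells in the fall of Myb was not tested.

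**Figure D3:**
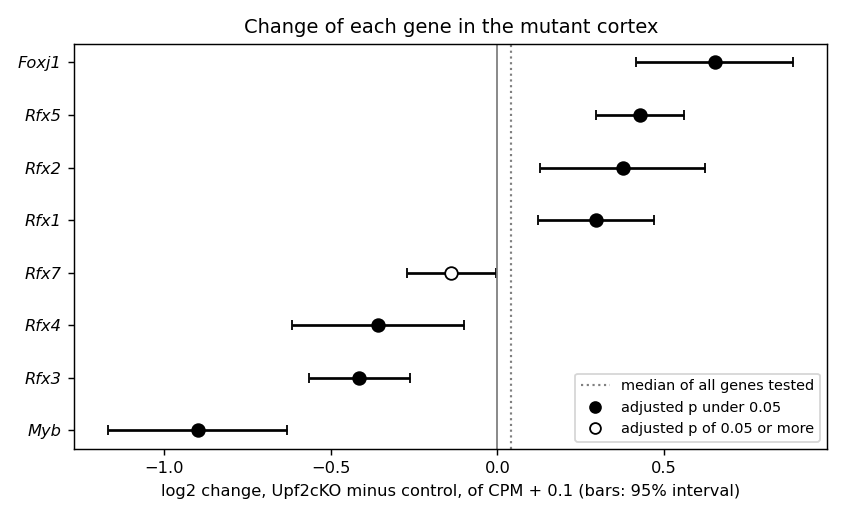
Log2 change of each gene (points) with its 95% interval (bars), filled where the limma adjusted p is under 0.05, with the median of all genes tested as a dotted line. Foxj1 is the highest at 0.65 and Myb the lowest at -0.90, and the interval of Rfx7 ends just below 0.

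Levels of different genes can be set side by side only per length. By TPM, the order in controls was Rfx3 (53.2 ± 5.26 TPM, SD, n = 4), Rfx7 (28.7 ± 2.04), Rfx1 (17.0 ± 0.779), Foxj1 (10.5 ± 1.68), Rfx5 (8.61 ± 0.471), Rfx4 (6.185 ± 0.169), Myb (1.74 ± 0.207) and Rfx2 (1.335 ± 0.0656). The libraries of neighbours in this order did not overlap, except those of Foxj1 and Rfx5. In the mutants the order was the same apart from the last places, where Rfx2 (1.835 ± 0.246 TPM) stood above Myb (0.955 ± 0.116 TPM), and no neighbours overlapped. Rfx3 fell to 41.6 ± 3.1 TPM and remained the most abundant member.

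Within the Rfx family, the share of Rfx3 was lower and those of Rfx1, Rfx2 and Rfx5 were higher in the mutants, while the total did not pass its test. The summed TPM of the 6 Rfx genes was 115 ± 7.01 in controls and 109.6 ± 1.96 in mutants (SD, n = 4, exact permutation test, two-sided, p = 0.200). The share of Rfx3 was 49.0%, 45.8%, 45.1% and 44.9% in controls 1 to 4 and 38.8%, 35.0%, 37.4% and 40.5% in Upf2cKO 1 to 4. Every mutant was below every control.

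The share of Rfx1 went from 14.8 ± 1.06% to 19.9 ± 2.48%, that of Rfx5 from 7.50 ± 0.356% to 11 ± 0.640% and that of Rfx2 from 1.16 ± 0.0716% to 1.68 ± 0.2296% (SD, n = 4). For Rfx1, Rfx2, Rfx3 and Rfx5 the groups did not overlap, with p = 0.0286 each in a two-sided exact permutation test, the smallest that 70 arrangements can give, and 0.0429 after adjustment over the 6 shares. The shares of Rfx4 (5.4 and 4.63%, adjusted exact p = 0.206) and Rfx7 (24.9 and 24.8%, adjusted exact p = 0.886) did not pass. Shares add up to a fixed total, so these tests are not independent of each other. Groups that lay apart were common in these data, with 56.6% of the genes tested not overlapping by CPM.

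**Figure D4:**
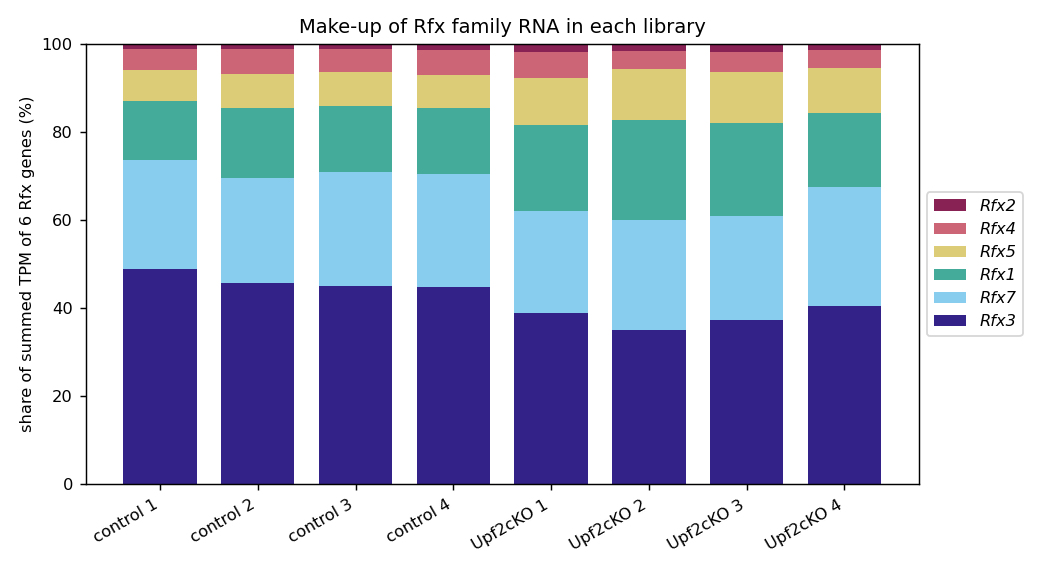
Share of each Rfx gene in the summed TPM of the 6 Rfx genes, stacked for each of the 8 libraries. The Rfx3 segment is 44.9 to 49.0% in controls and 35.0 to 40.5% in Upf2cKO, and the Rfx1 and Rfx5 segments are wider in Upf2cKO.

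Among the regulators of the making of multiciliated cells, Gmnc, Mcidas and Ccno were at low levels. Gmnc, which starts the programme, ranged from 0.33 to 0.67 CPM in controls and 0.31 to 1.18 CPM in mutants, and Mcidas, its partner, from 0.11 to 0.25 and 0.11 to 0.31 CPM. Ccno, a cyclin of centriole amplification, had 0.22 to 0.45 CPM in controls and 0.02 to 0.21 CPM in mutants, and all 3 were under the filter. Of 19 listed regulators 10 were tested, 3 rose and 5 fell. Trp73, a p53 relative that controls Foxj1 in the mouse, rose from 13.2 ± 0.760 to 19.6 ± 2.24 CPM (1.48-fold), and Fank1 (1.70-fold) and the centriole kinase Plk4 (1.29-fold) rose too. The fallers were Gmnn, an inhibitor of DNA replication related to Gmnc, E2f5 and Tfdp1, which act with multicilin, and Foxj2 and Foxj3, forkhead relatives of Foxj1. On TPM the number that fell was 3.

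Downstream, the genes that Foxj1 and the Rfx factors are known to act on mostly rose. Of 56 motile cilia genes 50 were tested, 38 rose and 2, Ccdc39 and Hyls1, fell, with a median log2 change of 0.79 against 0.04 over all genes tested. The dynein heavy chains Dnah1 (6.09-fold), Dnah2 (6.06-fold) and Dnah9 (6.42-fold) changed by more than Foxj1 did. The summed level of all 56 motile cilia genes was 236 to 238 CPM in controls and 451 to 468 CPM in mutants. Of the other genes tested 10 did not pass, among them Rsph9 and Rsph4a of the radial spoke, and 6 were under the filter.

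Of 42 primary cilium genes listed as dependent on Rfx factors, all tested, 26 rose and 5 fell, with a median log2 change of 0.29. Ift172 (2.36-fold) and Ift52 (1.82-fold), subunits of the intraflagellar transport complex, and the BBSome subunit Bbs7 (1.67-fold) had the smallest adjusted p. Those that fell were Ift20, Ift43, Arl13b and the transition zone genes B9d1 and B9d2. With TPM the number that fell was 3, and with median-of-ratios rescaling it was 9. The fall of Rfx3 and the rise of these genes are given side by side, and their relation was not tested.

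**Figure D5:**
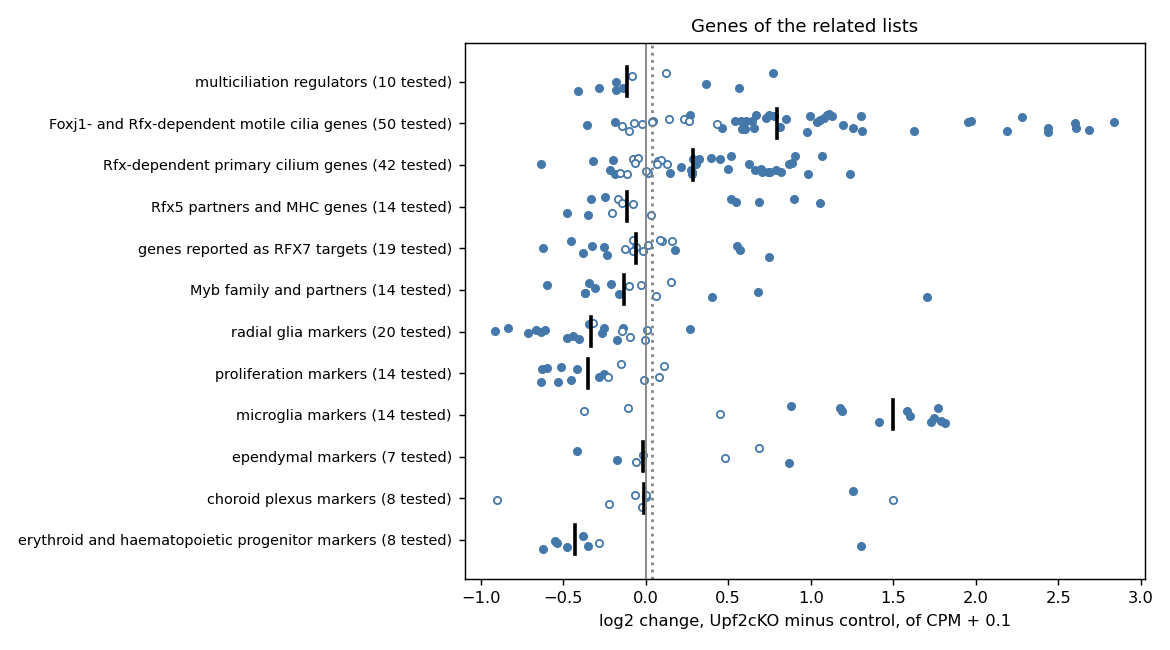
Log2 change of each tested gene (points, filled where the limma adjusted p is under 0.05) in the 12 related lists, with the list median as a black bar and the median of all genes tested as a dotted line. The motile cilia list has its median at 0.79 and the radial glia list at -0.33.

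In gene structure the members had little in common. Annotated transcripts with a premature stop that mark a target of decay were present in 2 of 8, Rfx5 (3 of 17 transcripts) and Rfx3 (1 of 8), of which one rose and the other fell. The share of all genes with such transcripts is not given here, so 2 of 8 can be called neither few nor many. Foxj1 has an exonic length of 2623 bases and Rfx7 of 15302 bases. Deposited values are per gene, so which transcripts changed was not measured.

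The genes whose profiles over the 8 libraries were most like those of the members were named by the root mean square difference of centred log2 values among 13207 protein-coding genes. For Foxj1 these were Pex16 (0.081), Slc26a6 (0.082) and Psmb10 (0.082), and for Rfx3 Lrrc58 (0.031), Dbt (0.031) and Fgf14 (0.033). Closest to Rfx1 were Gigyf1 (0.027), Setd1a and Map4k2, to Rfx2 Prrt1 (0.065), Mapk8ip3 and Nrg2, and to Rfx4 Adora1 (0.064), Qdpr and Pold2. Rfx5 was most like Scyl3 (0.029), Yeats2 and Eif2ak4, Rfx7 most like Eif4e3 (0.024), Zfp563 and Trmt10c, and Myb most like Btd (0.118), Gm8773 and B3gnt7. None of the nearest genes was another member or a gene of the lists, and with 8 libraries in 2 groups a gene comes near a member by a group difference of like size alone.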

How the data were processed

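The authors deposited one table of CPM and one of TPM per gene for the 8 libraries, rounded to 2 decimals. Of the tools named in the submitters' processing notes, STAR 2.7.11a is an aligner and DESeq2 tests counts; the build named is mm10. How reads were counted, and whether by strand, is not given in these sources. Depth was estimated from the steps of low values in genes of short exonic length, with CPM recalculated from TPM and length. It was 96.6 to 156.0 M reads a library. At 0.0064 to 0.0104 CPM per read the steps of the deposited CPM are as small as its rounding. Whole reads could therefore not be recovered for all genes and no count test was run. Gene models were GENCODE M21. Of the 55487 genes, 55227 were given a symbol.

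A gene needed 0.5 CPM in 4 or more libraries to be tested with limma 3.58.1 on log2(CPM + 0.1), control against Upf2cKO, with an intensity trend and Benjamini-Hochberg adjustment over 16573 genes at 0.05. Fold changes are on that scale, which understates those of low genes. Shares of Rfx genes in summed TPM were compared by exact permutation. The fit was tested on simulated data, where 19.4% of 1.2-fold, 77.6% of 1.5-fold and 80.3% of 2-fold changes were recovered. Only 66 or 67 of 16573 genes were changed at each fold there, far fewer than passed in the real data. Alternatives were the pseudocount, the filter, TPM, median-of-ratios rescaling, no trend, a replicate block, and leaving out libraries. Libraries of a group had the same CPM in at most 0.766% of the genes tested, so none was a copy of another.

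Members and lists were chosen with earlier results of these data known. The text names all members and, from each list, up to 3 of the genes that passed, by smallest adjusted p. Other list genes were named after their values were seen.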

Additional observations from a re-analysis of the deposited data

Results flagged for a closer look

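Ttr in the libraries labelled Upf2cKO had its highest value, 257.5 CPM in Upf2cKO 4, far from the other 3, which had 1.37 to 4.4 CPM. It was the only one of the 32 groups of values examined to stand out in this way, and chance marks about 1 in 20. The list genes Slc4a5 and S100b, whose highest mutant value also lay far from the rest, were not among the groups examined. The part of the choroid plexus in the level of any member in Upf2cKO 4 was not tested, and the values without control 4 and Upf2cKO 4 are given with the members.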

How the results depend on the processing

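The log2 changes of Foxj1 (0.56 to 0.73), Rfx1 (0.21 to 0.37), Rfx2 (0.29 to 0.48), Rfx3 (-0.50 to -0.35), Rfx5 (0.34 to 0.49) and Myb (-0.98 to -0.69) kept their direction and stayed past the threshold in all 17 alternatives. Rfx4 no longer passed on TPM (-0.30) or without control 4 and Upf2cKO 4 (-0.29), and ranged from -0.48 to -0.29 with single libraries left out. Rfx7 passed as lower after median-of-ratios rescaling (-0.23) and without control 4 and Upf2cKO 4 (-0.20), and ranged from -0.19 to -0.11 with single libraries left out. The difference in the share of Rfx7 turned from -0.15 to 1.2 percentage points when shares were taken from CPM. The median log2 change of all genes was 0.04, with TPM 0.10 and with median-of-ratios rescaling -0.05. Some counts over lists moved by more than 1.5 times. With a filter of 2 CPM, 23 motile cilia genes rose, and no choroid plexus and no erythroid gene did (0 each). Motile cilia genes that fell numbered 1 with a pseudocount of 1, no filter, TPM or no trend, and 1 to 2 with single libraries left out. Regulators of multiciliation that fell numbered 3 on TPM, and primary cilium genes that fell 3 with TPM and 9 with median-of-ratios rescaling. Choroid plexus genes that rose numbered 2 without control 4 and Upf2cKO 4, 2 with the replicate block, and 1 to 2 with single libraries left out. Ependymal genes that rose numbered 2 with no filter or the block, and those that fell 1 on TPM or without control 4 and Upf2cKO 4. Erythroid genes that rose numbered 2 with no filter, microglia genes that fell 0 to 1 and members that fell 2 to 4 with single libraries left out. Libraries of the same number correlated in their deviations at 0.42, 0.05, 0.52 and 0.19, and 5 of 8 correlated best with their own number. The labels do not say whether such libraries share a litter or batch, and these values do not settle it. The main tests did not pair them, because the labels name no pairs. With the replicate block 6126 genes rose and 4423 fell, against 6082 and 4359, and 4 members rose and 3 fell as before. For the shares of Rfx1, Rfx2, Rfx3 and Rfx5, a two-sided exact sign-flip test within same-numbered libraries gave p = 0.125 each, unadjusted, so these calls were lost, and 0.125 is the smallest p that 4 pairs allow. The causes of these differences were not tested. Depth limits Rfx2 and Myb most, with 176 to 610 estimated reads per library.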
